A study of Mus musculus with 18 samples.

Results

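The genes described here are 10 subunits of the activator protein 1 (AP-1) and BATF family of transcription factors, namely Fos, Fosb, Fosl1, Fosl2, Jun, Junb, Jund, Batf, Batf3 and Atf3. They were chosen by symbol, and each matched 1 of the 28096 genes counted in every library. RNA was sequenced from B cells purified from the spleens of C57BL/6 N mice of at least 8 weeks, either wild type (WT) or lacking exon 2 of Ubqln1 (Ubqln1 KO), the gene for ubiquilin-1, a chaperone of membrane and client proteins bound for the proteasome. The exon was deleted in embryonic stem cells, so that all tissues of the animal carried the deletion. Cells of each genotype were left resting, received anti-IgM F(ab)2 at 10 μg/mL, which crosslinks the B cell antigen receptor, or received lipopolysaccharide (LPS) from K12 E. coli at 20 μg/mL, which engages Toll-like receptor signalling. All cells were harvested at 4 hr, and each of the 6 groups had 3 libraries, 18 in all. Wells plated in triplicate were combined before RNA purification, and the libraries of a group are described as independent experiments, without saying which animals each came from. The p-values measure the spread between these libraries.

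AP-1 is a dimer of basic leucine zipper proteins that binds short palindromic DNA elements. JUN proteins pair with each other or with FOS proteins, whereas FOS proteins need a JUN partner. Many of the genes are immediate early genes, transcribed within minutes of a growth or antigen signal without new protein synthesis and often silenced again within hours. BATF and BATF3 pair with JUN proteins and lack an activation domain of their own, and BATF is known in lymphocytes for binding beside IRF4 at composite elements and for its need in class switch recombination. ATF3 is a stress-responsive member of the ATF/CREB branch that can pair with JUN proteins.

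Markers of the labelled cell type were high in all libraries. The 7 B cell markers summed to between 2376 and 8630 CPM, the count scaled to a common library size, and the 8 T and NK cell markers to between 0.627 and 1.86 CPM, with the T cell receptor component Cd3e at 0 in 11 of 18 libraries. The B cell sum itself was lower after anti-IgM (2376 to 3028 CPM) than in resting cells (7200 to 8630 CPM). The sum of 9 myeloid and dendritic cell markers was 27.6 to 55.4 CPM in resting cells and 14.2 to 23.2 CPM in stimulated cells, and Csf1r, the macrophage growth factor receptor, fell by 2.95 on the log2 scale after LPS in WT cells. The part of these markers in the results below was not tested. Ubqln1 itself lay between 91.4 and 128 CPM in the KO libraries and between 230 and 339 CPM in WT. The counts are per gene and do not show which exons the reads of the KO libraries came from. Total counts ran from 15368941 to 41072854 per library, with a median of 23257531. In bulk RNA, fewer cells that make a transcript and less of it per cell cannot be told apart.

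The start regions of Fosl2, Batf, Atf3 and Jun are shown, which with Fosl1, whose window was missing, had the 5 largest responses in WT. Each is the 250 bases before the RefSeq transcription start (GRCm38.p6), read 5′ to 3′ on the gene's own strand. Capitals mark matches, on either strand, to the CRE core TGACGT, to its variant TGACATCA, to the NFAT core GGAAAA or to the kappaB consensus. The windows lie at chr5:32136222-32136471 on the plus strand for Fosl2, at chr1:191183334-191183583 on the minus strand for Atf3, at chr4:95052223-95052472 on the minus strand for Jun and at chr12:85686470-85686719 on the plus strand for Batf. RefSeq starts can differ from the GENCODE spans given below. The Fosl2 and Atf3 windows lie within those spans, and the Batf window runs into its span. The Jund window, searched but not shown, ends at chr8:70697738, ahead of the GENCODE start at 70698949.
Fosl2: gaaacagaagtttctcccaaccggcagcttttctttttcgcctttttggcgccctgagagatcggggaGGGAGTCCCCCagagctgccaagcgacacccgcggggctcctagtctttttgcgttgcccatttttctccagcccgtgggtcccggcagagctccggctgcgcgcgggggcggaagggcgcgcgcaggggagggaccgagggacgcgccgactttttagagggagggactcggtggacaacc
Atf3: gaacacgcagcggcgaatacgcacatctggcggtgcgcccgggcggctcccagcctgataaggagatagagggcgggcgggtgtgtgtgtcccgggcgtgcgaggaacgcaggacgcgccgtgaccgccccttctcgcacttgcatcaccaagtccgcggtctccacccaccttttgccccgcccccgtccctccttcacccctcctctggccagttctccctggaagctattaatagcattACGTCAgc
Jun: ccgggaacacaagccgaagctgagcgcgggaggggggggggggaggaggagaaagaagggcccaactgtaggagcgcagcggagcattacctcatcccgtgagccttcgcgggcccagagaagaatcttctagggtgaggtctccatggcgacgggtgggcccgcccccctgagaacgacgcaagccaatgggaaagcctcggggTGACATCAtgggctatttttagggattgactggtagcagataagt
Batf: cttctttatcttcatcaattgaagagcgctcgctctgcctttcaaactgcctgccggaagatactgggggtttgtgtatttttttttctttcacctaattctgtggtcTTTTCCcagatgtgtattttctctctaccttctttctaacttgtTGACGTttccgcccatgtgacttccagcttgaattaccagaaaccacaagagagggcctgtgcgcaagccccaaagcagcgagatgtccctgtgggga
Of 32851 promoter windows of the same length, 6.47% held the CRE core, 2.93% the variant, 20.4% the NFAT core and 7.25% the kappaB consensus. Fosl2 had the kappaB match, 182 bases before its start and read again in an overlapping match at 181. Atf3 had the CRE core 8 bases before its start, Jun the variant at 45 bases, and Batf the CRE core at 98 and the NFAT core at 142 bases. Fos also held a CRE core, at 66 bases, and kappaB matches stood before Fos, at 214 bases, and Fosb, at 188 bases. The full palindromes TGANTCA (the AP-1 site, in 6.75% of windows) and TGACGTCA (in 1.55%) and the CArG box of serum response factor (in 1.47%) were in none of the 9 windows available, and Fosl1 had no window. These are matches of letters in short windows and do not show that a protein binds there. The CRE core and its variant were added to the search after the windows had been read, so their matches are a description only. Whether the kind of element goes with the stimulus was not tested.

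A fold change below is the ratio of group means fitted by edgeR's quasi-likelihood test, printed on the log2 scale with its standard error (SE), and a gene was called where the p adjusted over 14161 tested genes (Benjamini-Hochberg) was below 0.05. All 10 members passed the filter on low counts. After anti-IgM in WT cells, 5 members rose (Fosl1, Fosl2, Junb, Batf and Atf3), beside 32.4% of all tested genes, and 1 fell (Jund), beside 32.2%. After LPS in WT cells, 5 rose (Fosl1, Jun, Junb, Batf and Atf3), beside 31.2%, and 0 fell, beside 30.1%. In Ubqln1 KO cells 4 members rose after anti-IgM (the WT set without Batf), beside 32.9%, and Jund fell, beside 32.4%, whereas LPS raised the same 5 as in WT, beside 30.6%, and lowered 0, beside 30.2%. Batf was close to the limit in both genotypes (edgeR adjusted p = 0.0348 in WT and 0.0531 in KO). With the replicate number as a block in the fit, Batf and Fosb were called higher after anti-IgM in both genotypes. That fit called 9905 of 14161 genes in either direction in WT and 10010 in KO. With the stricter limits of the study's own analysis, an absolute log2 fold change over 2 and an adjusted p under 0.001, anti-IgM called Fosl1, Fosl2 and Atf3 in both genotypes, beside 3.76% of genes in WT and 3.64% in KO, and LPS called Batf in both, beside 1.80% in WT and 1.74% in KO. The median log2 fold change of the 10 members was 0.60 after anti-IgM and 0.54 after LPS in WT, against -0.01 over all tested genes in each case.

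**Figure D1:**
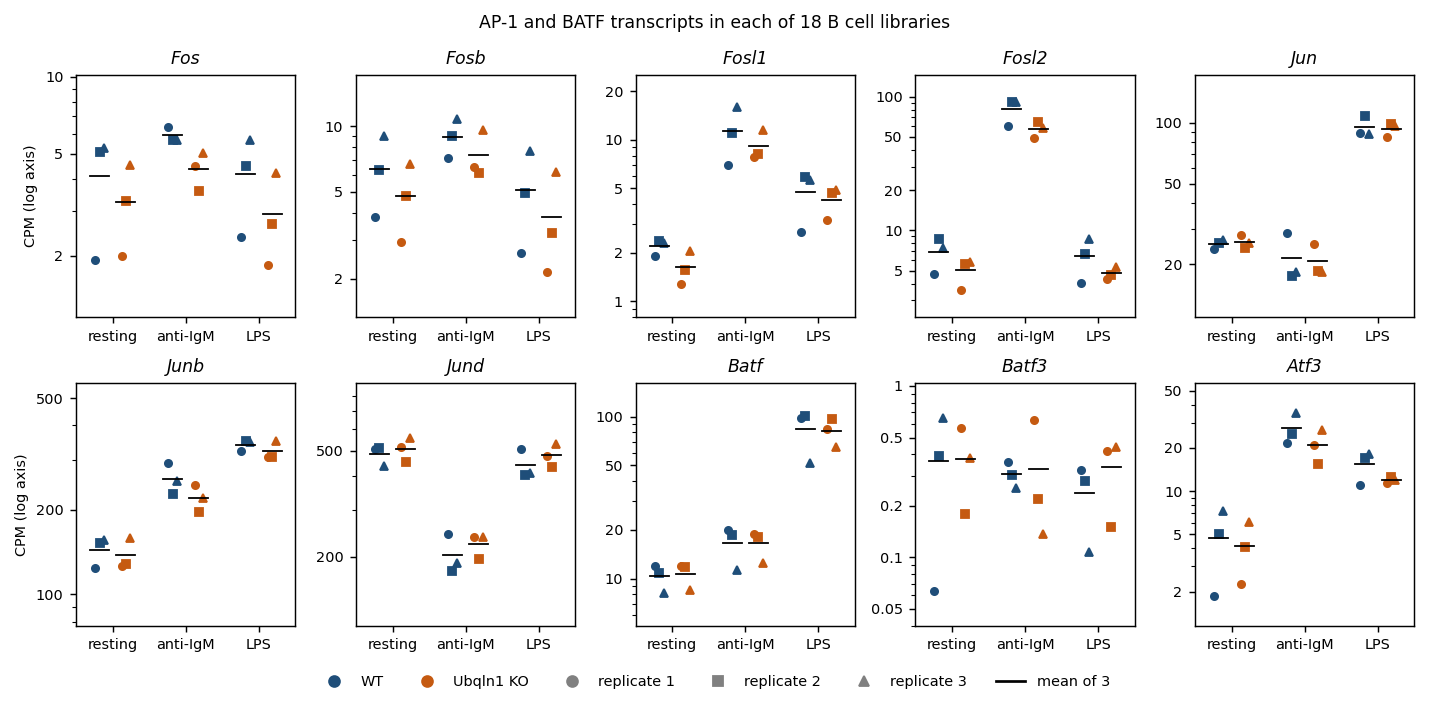
CPM on a log axis for each gene in each library, by stimulus (x axis), with WT in blue, Ubqln1 KO in orange, a symbol for each replicate number and a bar at the mean of 3. Fosl2 in the 6 anti-IgM libraries sat between 48.8 and 91.6 CPM and in no other library above 8.63 CPM, and Batf in the 6 LPS libraries sat between 52.0 and 100.4 CPM.

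Among the FOS genes, Fosl2 gave the largest response, also among all 10 members, and Fosl1 the next within the family, and both were higher after anti-IgM than after LPS. Fosl2 (chr5:32135801-32157842, plus strand, 4 exons), which encodes FRA2, a FOS protein without the strong activation domain of FOS, stood at 4.73, 8.61 and 7.42 CPM in the 3 resting WT libraries. It reached 60.8, 91.6 and 91.5 CPM after anti-IgM and lay at 4.01, 6.61 and 8.63 CPM after LPS. The anti-IgM libraries lay far above all others, and the LPS libraries overlapped the resting ones. Fosl2 rose 11.5-fold after anti-IgM (log2 3.53, SE 0.25, edgeR adjusted p = 5.55e-09), and its LPS value was -0.14 with a 95% interval from -0.70 to 0.42. In KO cells it stood at 3.60, 5.59 and 5.84 CPM at rest, at 48.8, 64.2 and 58.0 CPM after anti-IgM and at 4.34, 4.66 and 5.32 CPM after LPS. The anti-IgM response in KO was again 11.4-fold (log2 3.51, SE 0.26, edgeR adjusted p = 8.55e-09).

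Fosl1 (chr19:5447547-5455946, plus strand, 4 exons) encodes FRA1, a close relative of FRA2. In WT cells it was counted at 1.92, 2.38 and 2.29 CPM at rest, at 7.02, 11.1 and 15.9 CPM after anti-IgM and at 2.68, 5.87 and 5.62 CPM after LPS. All 3 groups were separate from each other in WT. Fosl1 rose 5.09-fold after anti-IgM (log2 2.35, SE 0.32, adjusted p = 7.58e-06) and 2.14-fold after LPS (log2 1.10, SE 0.33, adjusted p = 0.00861). The KO values were 2.48 after anti-IgM and 1.39 after LPS on the same scale, both called. The exons of Ccdc85b, on the opposite strand, cover 57.2% of the annotated exonic bases of Fosl1, and the library kit does not keep strand, so reads from the shared stretch cannot be assigned to either gene. Ccdc85b averaged 16.6 CPM at rest, 26.8 CPM after anti-IgM and 21.4 CPM after LPS in WT, so its levels moved with those of Fosl1 and its part in them was not tested.

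Fos and Fosb, the founding immediate early genes of the family, were low at 4 hr in all groups and were not called against resting cells. Fos (chr12:85473890-85477273, plus strand, 4 exons) was at 1.92, 5.10 and 5.28 CPM in resting WT cells, at 6.38, 5.64 and 5.67 CPM after anti-IgM and at 2.36, 4.50 and 5.66 CPM after LPS. The anti-IgM libraries lay just above the highest resting library, and the LPS libraries overlapped the resting ones. The fitted log2 fold change of Fos was 0.49 after anti-IgM in WT (SE 0.36, adjusted p = 0.242), with an interval from -0.27 to 1.26. Fosb (chr7:19302696-19310051, minus strand, 4 exons) was at 3.84, 6.27 and 9.02 CPM at rest, at 7.14, 8.98 and 10.8 CPM after anti-IgM and at 2.62, 4.93 and 7.70 CPM after LPS in WT. Fosb overlapped between the groups, with a log2 fold change of 0.47 after anti-IgM (SE 0.40, adjusted p = 0.307). With the replicate number as a block, which removes differences that libraries of the same number share, Fosb was called after anti-IgM in WT (log2 0.53, adjusted p = 0.0101) and in KO (log2 0.66, adjusted p = 0.00278).

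The shares of the FOS genes in their family were compared between groups, without any that could pass 0.05. Expressed per length as RPKM, which divides the CPM by the length of the gene in kilobases, and summed over the 4 genes, the family averaged 6.12 ± 1.97 (SD, n = 3) in resting WT cells, 25.7 ± 5.68 after anti-IgM and 7.20 ± 2.81 after LPS. Fosl2 held 19.6% ± 2.40 of that sum at rest and 54.0% ± 3.17 after anti-IgM, whereas the share of Fos went from 30.8% ± 6.15 to 11.5% ± 3.67. After LPS the largest share was that of Fosl1, at 38.7% ± 4.12 against 22.3% ± 5.97 at rest. Each of these 3 differences has an exact two-sided permutation p of 0.1, the smallest that 3 libraries against 3 allow, and 0.133 after Benjamini-Hochberg adjustment over the 40 shares tested. Those 40 are not independent, as the shares of a family sum to a whole in each library. In KO cells Fosl2 held 18.8% at rest and 50.9% after anti-IgM.

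**Figure D2:**
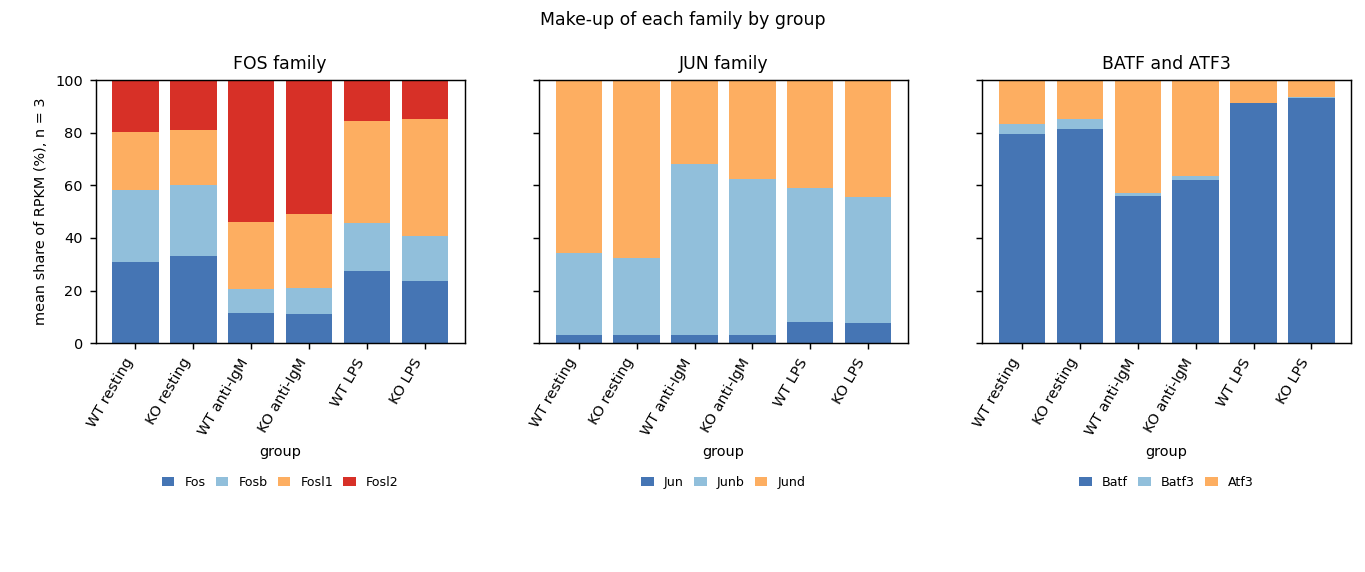
Mean share of each member (percent, n = 3 libraries) in the summed RPKM of its family, one stacked bar for each group. Fosl2 takes 54.0% of the FOS family after anti-IgM in WT, Junb goes from 31.2% to 65.0% of the JUN family after anti-IgM with the gene widths in the files, and Batf holds 91.1% of the last family after LPS in WT.

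Jun, Junb and Jund lack introns in their principal transcripts and answered in 3 different ways. Jun (chr4:95049034-95052222, minus strand, 1 exon), the prototype JUN subunit, was at 23.9, 25.4 and 26.5 CPM in resting WT cells and at 88.8, 108 and 88.3 CPM after LPS, but at 28.6, 17.6 and 18.4 CPM after anti-IgM. The LPS libraries were all above the rest, while the anti-IgM libraries lay on both sides of the resting ones. Jun rose 3.76-fold after LPS (log2 1.91, SE 0.16, edgeR adjusted p = 4.2e-08) and had a log2 fold change of -0.23 after anti-IgM (SE 0.16, adjusted p = 0.22). The latter rested on WT anti-IgM replicate 1, the highest of its group: without it Jun was called lower in WT (-0.48, adjusted p = 0.0049). In KO cells the anti-IgM value was -0.32 (adjusted p = 0.0863) and was called without KO anti-IgM replicate 1 (-0.48, adjusted p = 0.0198) or without WT anti-IgM replicate 1 (-0.31, adjusted p = 0.0278), the last through the spread that all groups share. The LPS response of Jun in KO was 3.61-fold, from 27.9, 24.2 and 25.6 CPM at rest to 84.9, 98.6 and 96.8 CPM.

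Junb (chr8:84974484-84978718, minus strand), a JUN protein with weaker activation than JUN, rose with both stimuli. It was at 124, 153 and 156 CPM in resting WT cells, at 295, 227 and 253 CPM after anti-IgM and at 325, 351 and 349 CPM after LPS. None of the 3 WT groups overlapped. The changes were 1.79-fold after anti-IgM (log2 0.84, SE 0.12, adjusted p = 8.05e-06) and 2.36-fold after LPS (log2 1.24, SE 0.12, adjusted p = 1.75e-07). In KO cells they were 1.597-fold (log2 0.68) and 2.34-fold (log2 1.23), both called.

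Jund (chr8:70698949-70700616, plus strand) encodes the JUN protein most associated with resting cells, and it fell after anti-IgM. Its WT values were 506, 512 and 439 CPM at rest, 243, 177 and 189 CPM after anti-IgM and 505, 405 and 413 CPM after LPS. The anti-IgM libraries were at less than the lowest value of either other group, and the LPS libraries overlapped the resting ones. Jund fell by 1.26 on the log2 scale after anti-IgM (SE 0.13, edgeR adjusted p = 2.2e-07), to 0.418 of its resting level, and by 1.18 in KO (adjusted p = 4.37e-07). The LPS values were -0.14 in WT, with an interval from -0.40 to 0.13, and -0.08 in KO. In the annotation used here an antisense gene, Gm11175, covers 52.6% of the exonic bases of Jund, and smaller overlaps were found for Junb with Prdx2 (7.52%) and for Jun with the antisense gene Junos (7.28%). Prdx2 averaged between 35.5 and 41.6 CPM over the 6 groups. Gm11175 and Junos were not among the genes counted, so their levels are not known. As with Fosl1, reads from a shared stretch cannot be assigned to either gene, and the part of these overlaps was not tested.

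On the RPKM scale the order within the family depends on the gene length used. With the width in the files, 2878 bases for Jund, Jund averaged 169 ± 14.0 RPKM (SD, n = 3) and Junb 79.9 ± 9.90 RPKM in resting WT cells, whereas after anti-IgM Junb stood at 143 ± 18.8 RPKM and Jund at 70.5 ± 12.3 RPKM. After LPS Junb was at 189 ± 8.05 RPKM and Jund at 153 ± 19.2 RPKM. With the exonic bases of GENCODE, 1668 for Jund and 2301 for Junb, Jund remained above Junb in the means of all 3 WT groups, at 291 ± 24.2 and 62.8 ± 7.78 RPKM at rest, 122 ± 21.2 and 112 ± 14.8 RPKM after anti-IgM and 264 ± 33.2 and 148 ± 6.32 RPKM after LPS. The width in the files was deposited with the counts, and on it Junb was above Jund after either stimulus in WT. The GENCODE bases come from another annotation. Counts per gene do not show which bases the reads came from, so the ranking after stimulation holds for the deposited width only. With the width in the files, the share of Junb in the summed RPKM of the 3 genes was 31.2% ± 3.88 at rest, 65.0% ± 1.35 after anti-IgM and 50.9% ± 3.41 after LPS (each exact permutation p against rest 0.1, adjusted 0.133), and with the GENCODE bases it was 17.4% ± 2.63, 46.7% ± 1.39 and 33.7% ± 3.23, higher after stimulation on either length. Jun held 3.10% at rest and 8.02% after LPS.

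Batf, Atf3 and Batf3 differed from each other in level and in response. Batf (chr12:85686669-85709087, plus strand, 3 exons) was at 12.0, 10.9 and 8.22 CPM in resting WT cells, at 20.1, 18.8 and 11.3 CPM after anti-IgM and at 97.7, 100.4 and 52.0 CPM after LPS. The LPS libraries were far above all others, with replicate 3 lower than the other 2, and the lowest anti-IgM library fell within the resting range. Batf rose 8.09-fold after LPS (log2 3.02, SE 0.27, edgeR adjusted p = 1.21e-07). In KO cells it went from 12.0, 11.8 and 8.49 CPM to 83.8, 97.3 and 65.0 CPM, a 7.64-fold rise (log2 2.93, SE 0.27, adjusted p = 1.49e-07).

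The anti-IgM change of Batf was smaller and close to the threshold. It was 1.63-fold in WT (log2 0.70, SE 0.28, adjusted p = 0.0348) and 1.54-fold in KO (log2 0.63, SE 0.27, adjusted p = 0.0531). With the replicate block the KO change was called (log2 0.62, adjusted p = 5.05e-05). The WT call was lost with limma voom (adjusted p = 0.0996) and without WT anti-IgM replicate 1 (0.124) or replicate 2 (0.101) and without WT resting replicate 2 (0.0604) or replicate 3 (0.124), these values being adjusted p. The KO change passed with DESeq2 (adjusted p = 0.026), without the count filter (0.0376) and with only the groups compared (0.0105). It also passed without KO anti-IgM replicate 3 (adjusted p = 0.023), WT anti-IgM replicate 3 (0.0315), WT LPS replicate 3 (0.0209) or WT resting replicate 3 (0.0474), and the log2 value over all alternatives stayed positive.

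Atf3 (chr1:191170296-191218039, minus strand, 4 exons) rose with both stimuli. Its WT values were 1.85, 5.03 and 7.27 CPM at rest, 21.8, 25.2 and 35.1 CPM after anti-IgM and 10.98, 16.95 and 18.1 CPM after LPS. No library of a stimulated group overlapped the resting ones, and the 2 stimulated groups were separate as well. The rise was 5.64-fold after anti-IgM (log2 2.495, SE 0.36, adjusted p = 1.09e-05) and 3.17-fold after LPS (log2 1.66, SE 0.36, adjusted p = 0.000668), and in KO cells 5.04-fold and 2.88-fold. Batf3 (chr1:191097847-191108945, plus strand, 3 exons), best known for its need in the development of cross-presenting dendritic cells, had between 1 and 19 counts in a library, or 0.06 to 0.65 CPM. At this depth no change of Batf3 was detectable, and the interval of its log2 fold change ran from -1.70 to 1.06 after anti-IgM and from -2.02 to 0.70 after LPS in WT.

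In summed RPKM these 3 genes averaged 14.3 ± 0.72 (SD, n = 3) in resting WT cells, 32.7 ± 1.83 after anti-IgM and 100.3 ± 29.2 after LPS. Batf held 79.6% ± 13.2 at rest, 55.9% ± 13.3 after anti-IgM and 91.1% ± 4.49 after LPS, and Atf3 16.8% ± 10.2, 42.8% ± 13.5 and 8.56% ± 4.58. The shifts of Batf and Atf3 after anti-IgM in WT had an exact permutation p of 0.1 and those after LPS of 0.3, where the LPS and resting libraries overlapped.

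**Figure D3:**
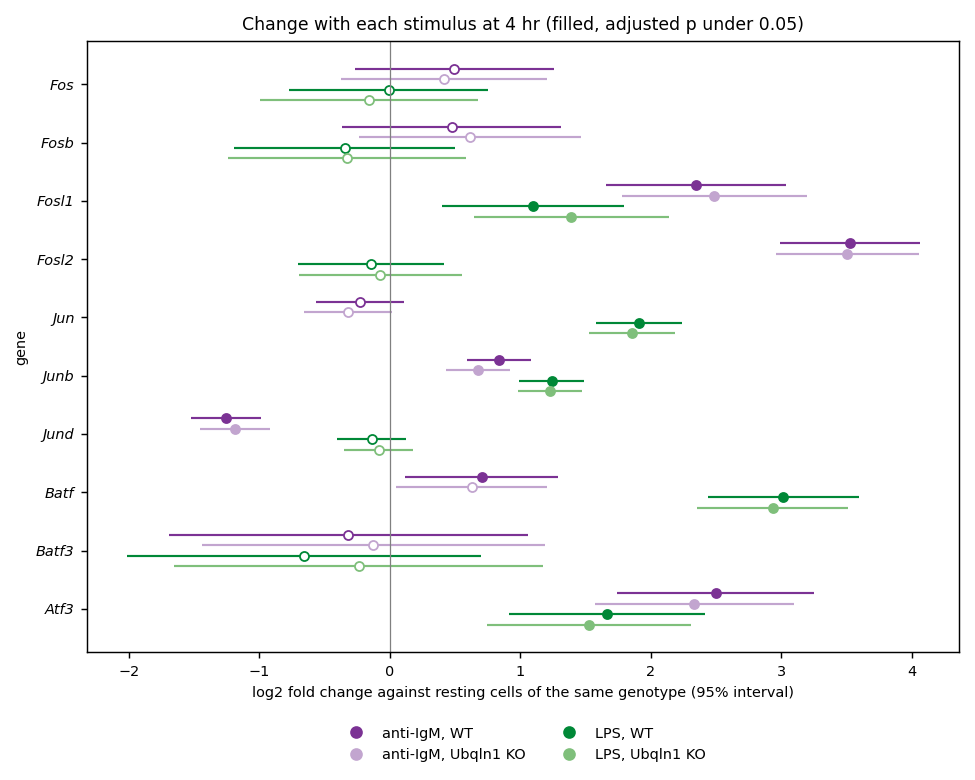
Log2 fold change of each gene against resting cells of the same genotype with its 95% interval, for anti-IgM (purple) and LPS (green) in WT (dark) and Ubqln1 KO (light), with filled points for adjusted p under 0.05. Fosl2 at 3.53 and Jund at -1.26 respond to anti-IgM with LPS intervals that span 0, and Jun at 1.91 responds to LPS with an anti-IgM interval that spans 0.

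The stimuli were also compared with each other directly, which tests the difference between the responses. In WT cells 4 members were higher after LPS than after anti-IgM (Jun, Junb, Jund and Batf), beside 17.4% of tested genes, and 2 were lower (Fosl1 and Fosl2), beside 15.0%. The same 4 and the same 2 were called in KO cells, beside 16.8% and 14.5%. Fosl2 was lower after LPS by a log2 value of -3.67 in WT (SE 0.25, edgeR adjusted p = 6.55e-09). Jun was 4.41-fold higher after LPS (adjusted p = 1.56e-08), Batf 4.96-fold (adjusted p = 2.14e-06), Jund 2.17-fold (adjusted p = 2.48e-06) and Junb 1.32-fold (adjusted p = 0.0119). Junb lost its WT call without WT anti-IgM replicate 2 (log2 0.32, adjusted p = 0.0719), and Fosl1 its KO call without KO LPS replicate 1 (log2 -0.94, adjusted p = 0.0505).

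Atf3 and Fosb were lower after LPS without passing the threshold. For Atf3 the log2 values were -0.83 in WT (adjusted p = 0.054) and -0.81 in KO (adjusted p = 0.072), and with the replicate block both were called (-0.82, adjusted p = 0.00217, and -0.80, adjusted p = 0.00492). The WT value also passed with limma voom, without the count filter, with only the groups compared and without WT anti-IgM replicate 1, WT resting replicate 1 or 3, or KO resting replicate 1 or 3, with adjusted p between 0.0202 and 0.0496. The KO value also passed with only the groups compared (0.00707) and without WT resting replicate 1 (0.0322). For Fosb the values were -0.82 in WT (adjusted p = 0.125) and -0.94 in KO (adjusted p = 0.0983), and they were called with the block (-0.89, adjusted p = 0.000282, and -1.01, adjusted p = 0.000227) and without the LPS replicate 3 of the same genotype (-1.23, adjusted p = 0.0363, and -1.42, adjusted p = 0.0293).

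The question of the series was what the loss of Ubqln1 does to these responses. No member was called between genotypes in resting cells, beside 0.0565% of tested genes, after anti-IgM, beside 0.0989%, or after LPS, beside 0.0424%. Over the 30 tests the lowest adjusted p was 0.897 and the lowest unadjusted p 0.0296, which was 1 of 728 genes with an unadjusted p under 0.05 in that comparison. Fosl2 gave that value, with a log2 difference of -0.51 after anti-IgM (SE 0.21, interval from -0.97 to -0.06). It was -0.49 in resting cells (interval from -1.09 to 0.10) and -0.42 after LPS (interval from -1.01 to 0.17). Fosl2 was lower in the KO library than in the WT library of the same number in 8 of 9 such pairs, without a count over all tested genes to compare. The exception was LPS replicate 1, where the ratio was 1.08.

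With the replicate block the difference after anti-IgM was called for Fosl2 (log2 -0.49, SE 0.094, edgeR adjusted p = 0.0215), so that the count of called members in that comparison was 1 with the block, beside 0.664% of all tested genes, and 0 without it, beside 0.0989%. The blocked values in resting cells (-0.48, adjusted p = 0.276) and after LPS (-0.42, adjusted p = 0.341) did not pass. In the 3 same-number pairs after anti-IgM the KO library held 0.802, 0.701 and 0.634 of the WT level of Fosl2.

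For the other members the intervals given here come from the fit without the replicate block. With the block the SE after anti-IgM was smaller, at 0.099 against 0.26 for Batf, 0.16 against 0.39 for Fosb and 0.15 against 0.16 for Jun. The KO against WT difference of Junb after anti-IgM was -0.23 (interval from -0.47 to 0.02), that of Jund 0.14 (from -0.13 to 0.41), that of Jun -0.06 (from -0.39 to 0.28) and that of Batf -0.02 (from -0.57 to 0.54). Those of Fos (-0.44, from -1.19 to 0.30), Fosb (-0.28, from -1.10 to 0.54), Fosl1 (-0.30, from -0.90 to 0.29) and Atf3 (-0.39, from -1.05 to 0.28) had wider intervals. The 3 KO libraries of Fos did not overlap the 3 of WT after anti-IgM, and for the other 9 members they did, where 11.4% of all tested genes had groups that did not overlap. Fosb was lower in the KO library in 9 of 9 same-number pairs, Fos and Fosl2 in 8, and Fosl1 and Atf3 in 7. Junb was lower in 6, Jun and Batf3 in 5, Batf in 4 and Jund in 3. The 9 pairs are 3 numbers under 3 stimuli, and the 3 resting pairs share only a number. Since these genes deviated together within libraries, the counts are not independent of each other. How many of all tested genes had such counts was not computed, so the pair counts have no background to stand beside. The sum of 4 plasma cell markers, mostly Jchain, the joining chain of secreted IgM, was higher in WT than in KO libraries within each stimulus. At rest it was 252 to 465 CPM in WT and 185 to 215 CPM in KO. After anti-IgM it was 214 to 405 and 154 to 187 CPM, and after LPS 146 to 329 and 98.0 to 130 CPM. The part of this sum in the differences above was not tested.

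**Figure D4:**
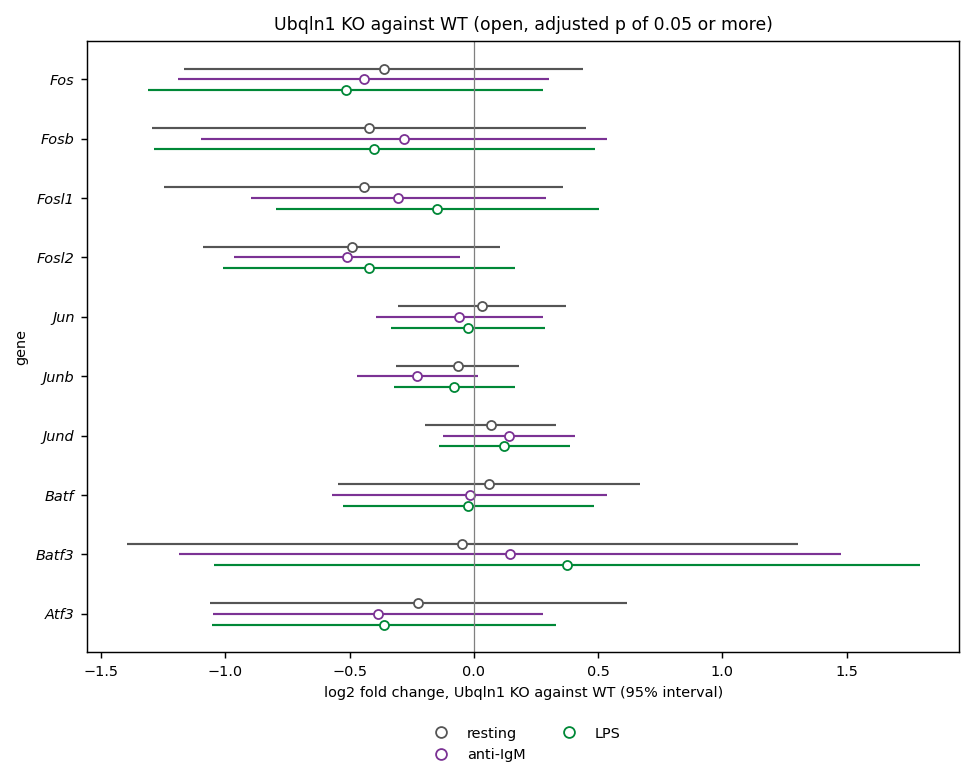
Log2 fold change of Ubqln1 KO against WT for each gene with its 95% interval, in resting cells (grey), after anti-IgM (purple) and after LPS (green), all open because none had an adjusted p under 0.05. The interval of Fosl2 after anti-IgM, from -0.97 to -0.06, does not span 0, and the intervals of Jun, Junb and Jund are the narrowest.

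The size of the response itself was compared between genotypes with an interaction term. No member was called for the anti-IgM response, beside 0.00% of tested genes, or for the LPS response, beside 0.00%. An unadjusted p under 0.05 was found for 140 and 220 of the 14161 genes, and 0 genes were called by limma voom or DESeq2 either. The lowest unadjusted p over the 20 tests of members was 0.336. The difference in the anti-IgM response, KO minus WT, was -0.02 for Fosl2 (interval from -0.79 to 0.75), 0.07 for Jund (from -0.30 to 0.45) and -0.16 for Junb (from -0.51 to 0.18). For the LPS response it was -0.06 for Jun (from -0.52 to 0.40) and -0.08 for Batf (from -0.88 to 0.71). These intervals, from the fit without the block, leave room for differences of that size in either direction.

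Within groups, several members deviated with the replicate number. The library numbered 1 was the lowest of its 3 in 6 of 6 groups for Fosl1 and Fosl2, in 5 for Fosb and Atf3 and in 4 for Fos, and the mean log2 deviation of that number was between -0.38 and -0.54 for these 5 genes. Batf went the other way, with library 3 lowest in 6 of 6 groups and a mean log2 deviation of -0.41. Jun, Junb and Jund deviated less, with means between -0.12 and 0.11. What the numbers stand for is not given in the labels. Over all tested genes, too, same-number libraries deviated together, with a mean r of 0.266 and 43 of 45 pairs over 0.1. How many genes had such counts was not computed, so the pattern is not particular to these members. The sum of 6 heat shock and handling genes was 157 to 179 CPM at rest and 228 to 274 CPM after stimulation.

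**Figure D5:**
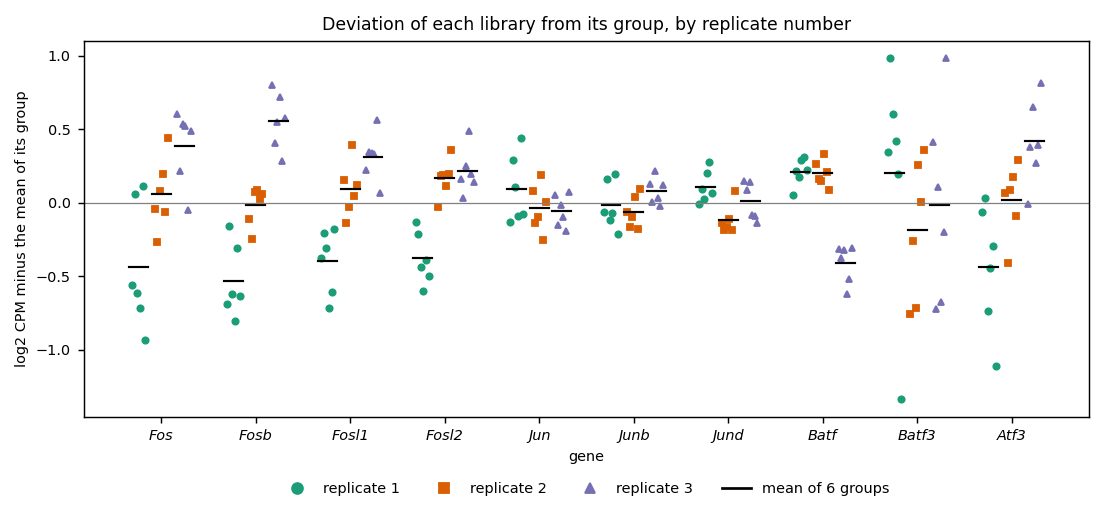
Deviation of log2 CPM from the mean of its group for each library, by gene and replicate number, with a bar at the mean over the 6 groups. Number 1 lies below 0 in 6 of 6 groups for Fosl1 and Fosl2, and number 3 lies below 0 in 6 of 6 groups for Batf.

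Across the 18 libraries the genes whose log2 CPM was most like that of each member were found by Pearson's r, given as a description since the points share stimulus and library. Fosl2 was nearest to Fbxo30 (r = 0.992) and to Plau (r = 0.9905), which encodes urokinase. Jun was nearest to the immediate early gene Ier5 (r = 0.989) and to the phosphatase gene Dusp16 (r = 0.981), and Junb to the early activation marker Cd69 (r = 0.989) and to an unnamed gene (r = 0.983). Fosl1 was nearest to Scamp2 (r = 0.977) and the amino acid transporter chain Slc3a2 (r = 0.976), Jund to Lrch4 (r = 0.988) and Gm20605 (r = 0.987), Batf to BC035044 and Snx11 (each r = 0.986), and Atf3 to Tmed10 (r = 0.977) and Zc3h12c (r = 0.971). Fos had lower values, 0.914 with Ric8a and 0.912 with Fosb, as did Fosb with Emilin2 (0.943) and Map4 (0.931). Batf3, at its few counts, reached 0.705 with 4933430I17Rik. Between members the highest r was that of Fosl1 with Atf3 (0.925), and the lowest that of Fosl2 with Jund (-0.971).

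The transcripts also differ in a feature of their 3′ untranslated ends. The pentamer ATTTA of AU-rich elements, known to mark short-lived messengers, occurred 4 times in Fos, 8 in Fosl2, 4 in Jun, 2 in Junb and 3 in Atf3, once each in Fosb, Fosl1 and Jund, and 0 times in Batf and Batf3, in the longest annotated form of each. Per kilobase, Fos held 4.89, Junb 4.10 and Jun 3.24 pentamers, against a median of 1.32 over 11323 tested genes, and Fosl2 held 1.72. The stricter nonamer TTATTTATT, present in 8.34% of those genes, was found in Fos and in Fosl2. Those sites are shown with 8 bases on each side and the nonamer in capitals.
Fos: ttttcaatTTATTTATTaagatgga
Fosl2: ttattttaTTATTTATTttaaatgt

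Other genes of the pathway were followed through lists chosen by function, with earlier results of these data known. Their counts therefore describe the lists and do not test them. They stand beside 32.4% of all tested genes higher and 32.2% lower after anti-IgM in WT, and 31.2% higher and 30.1% lower after LPS. Of 30 tested genes among 33 other basic leucine zipper factors, 21 rose and 3 fell after anti-IgM in WT, and 17 rose and 6 fell after LPS, with median log2 fold changes of 0.63 and 0.32. Maff, a small MAF protein without an activation domain, went from 6.05 to 43.7 CPM after anti-IgM (log2 2.84, SE 0.18, adjusted p = 1.89e-09) and to 11.9 CPM after LPS (log2 0.96, adjusted p = 0.000238). Of 25 kinases and serum response factors upstream of AP-1, 6 rose and 11 fell after anti-IgM, and 9 rose and 11 fell after LPS. Map2k6, a kinase that activates p38, fell by 2.22 on the log2 scale after LPS (adjusted p = 1.5e-05) and by 1.59 after anti-IgM. Irf4, the partner of BATF at composite elements, went from 408 CPM at rest to 1927 CPM after anti-IgM (log2 2.24, SE 0.076, adjusted p = 9.05e-12) and to 1430 CPM after LPS (log2 1.81). Of the 6 BATF partners and NFAT genes, 3 rose and 2 fell after anti-IgM, and 2 rose and 3 fell after LPS.

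Of 17 tested genes reported as targets of AP-1 or BATF, among 20 listed, 7 rose and 3 fell after anti-IgM in WT, and 8 rose and 3 fell after LPS. Spp1, which encodes osteopontin, went from 3.25 CPM at rest to 79.9 CPM after anti-IgM (log2 4.62, adjusted p = 3.28e-11) and fell to 1.06 CPM after LPS (log2 -1.59). Plau went from 6.02 to 116 CPM after anti-IgM (log2 4.23) and had a log2 value of -0.50 after LPS (adjusted p = 0.329). Il1r1, the receptor for interleukin 1, went from 0.42 to 17.5 CPM after anti-IgM (log2 5.27), whereas Il6 went from 0.18 to 6.45 CPM after LPS (log2 5.25, adjusted p = 3.38e-07) and was at 0.06 CPM after anti-IgM. Among 15 other immediate early genes, 8 rose and 2 fell after anti-IgM, and 5 rose and 5 fell after LPS, the latter close to the shares of all tested genes. Egr2 rose by a log2 value of 4.17 after anti-IgM and fell by 0.88 after LPS, Myc rose by 3.20 and 3.12, Nr4a1 by 2.59 and 1.495, and Egr1 rose by 2.67 after anti-IgM and had a value of 0.63 after LPS (adjusted p = 0.0988). Of 5 tested heat shock and handling genes among 6 listed, 2 rose and 0 fell with either stimulus. Of these lists no gene was called between genotypes.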

How the data were processed

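The deposited files hold, for each library, raw counts of reads in the exons of each Entrez gene and RPKM values computed by the authors, with GSNAP as aligner and GRCm38 as genome, from reads of a single end. The counting program and annotation release are not given in the sources used here, and the kit does not keep strand. The deposited counts were fitted with edgeR 4.0.16 in R 4.3.3 (TMM, filterByExpr, quasi-likelihood test, 1 term for each of 6 groups over 18 libraries, 14161 genes tested, Benjamini-Hochberg adjustment). CPM and RPKM in the text are these counts over TMM-scaled totals, RPKM also over the deposited gene width, and the deposited RPKM served as an alternative. Shares were compared by exact permutation. Family members and gene lists were chosen with earlier results of these data known. The unnumbered library of each group was taken as replicate 1. Besides the members, the text names up to 4 genes of each list with the largest change among those past the study's limits in WT, any list gene called between genotypes, and the 2 genes most correlated with each member. Csf1r stands for its list by that rule, as do Sdc1 and Pecam1 for the plasma cell and the erythroid and stromal lists. Sdc1 fell by 2.52 on the log2 scale after LPS in WT, and Pecam1 fell by 2.60 after anti-IgM. Positions and overlaps are from GENCODE vM21, and promoter sequences from RefSeq (GRCm38.p6). The CRE core and its variant were added to the motifs after the windows had been read.

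Replicate numbers were checked as pairs from the deviations of libraries from their group means. Same-number libraries correlated at 0.055 to 0.516 over 45 pairs, and different-number libraries at 0.0796 or less over 90. Because the deviations are from group means, positive same-number values push the different-number values down, so the latter are not separate evidence. Each pair was over 0.1 in the 6 stimulus comparisons and in KO against WT after anti-IgM (0.205 to 0.388) and after LPS (0.253 to 0.319), so the numbers were taken to pair these samples, and blocked values are given where they change a call. In resting KO against WT the lowest was 0.0826. Fits were tested on simulated data. Alternatives were limma voom 3.58.1, DESeq2 1.42.0, RLE scaling, other count filters, fits of the compared groups alone, an adjusted p under 0.01, the block and leaving out each library. Levels below about 10 counts, as for Batf3, are limited by depth.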

Additional observations from a re-analysis of the deposited data

How the results depend on the processing

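The count of called members kept within 1.5 times its value, in all 11 comparisons and under all alternatives run, with the exception of KO against WT after anti-IgM, where the replicate block gave 1 (Fosl2) against 0. Leaving out 1 library gave 5 to 6 members called for anti-IgM against rest in either genotype, 5 for LPS against rest, 5 to 7 for LPS against anti-IgM, and 0 for the genotype and interaction comparisons. No called log2 fold change changed sign under any alternative run, and sign changes among values that were not called were not counted. Apart from the blocked calls given in the report, for Fosb, Batf, Atf3 and Fosl2, the block changed no other call of a member. In resting KO against WT, where the numbers were not taken as pairs, it called 0 members.

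Over all tested genes, KO against WT called 8, 14 and 6 genes at rest, after anti-IgM and after LPS, against 49, 94 and 125 with the block, 32, 47 and 51 with DESeq2, and 5, 2 and 2 with only the groups compared. LPS called 9 without the count filter. The cause was not tested. The 40 family shares are not separate results, since those of a family sum to a whole and both stimuli use the same resting libraries. Of the 40 family shares, 30 had groups that did not overlap, 27 with CPM in place of RPKM and 30 with the deposited RPKM. It was 33 with GENCODE exon bases as gene length, an alternative chosen after seeing the data. Without 1 library, 26 to 32 shares had an exact permutation p of 0.1 or less. In a group of 2 libraries, separate groups can give a larger p, so that count does not measure overlap. None of the shares can pass 0.05 with 3 libraries a group. With CPM, where length is not divided out, 3 shares of WT cells changed sign: Fosl1 after anti-IgM (-1.57 percentage points against 2.90), Jun after anti-IgM (0.54 against -0.07) and Fos after LPS (0.32 against -3.15). With GENCODE exon bases the Jun share after anti-IgM in WT changed sign (0.573). Leaving out 1 library moved the Jun share after anti-IgM between -0.297 and 0.0854 points in WT and between -0.165 and 0.209 in KO. What depth limits is the low end: Batf3 had 1 to 19 counts a library.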
